A study of Mus musculus with 7 samples.

Results

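The genes described here make cholesterol and fatty acids or regulate that synthesis. They are 31 genes chosen by name, all of them among the 28828 entries of the count table and all 31 among the 19832 genes with enough counts to be tested. RNA of whole lung was sequenced from mice with a knockout of Scgb3a2, which encodes a small secreted protein made mainly by airway secretory cells, and from wild type mice. Both groups are of the C57BL/6 strain, with 3 knockout libraries (KO3, KO4 and KO5) and 4 wild type libraries (WT2, WT3, WT4 and WT6). The labels state neither age nor sex, nor which exons the allele lacks, nor whether the libraries are of separate mice. The p-values then cover library-to-library spread, which may be technical.

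The cell builds cholesterol from acetyl-CoA, first through the mevalonate pathway to isoprenoid units, then through squalene and a chain of sterol intermediates. The same acetyl-CoA is carboxylated and assembled into long saturated chains, which other enzymes lengthen or desaturate. Transcription factors of the SREBP family turn on both branches when sterols run low, and Scap and the Insig proteins control their release from the endoplasmic reticulum. In lung, alveolar type 2 cells draw on both branches to make surfactant, whose main lipids are phosphatidylcholine and cholesterol.

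Totals ranged from 13071262 to 16480006 counts per library. Scgb3a2 had 19, 19 and 37 counts in KO3, KO4 and KO5, against 2636 to 4204 counts in the wild type libraries, so every library carried the level that its label states. The tissue label was matched by type 2 cell transcripts, with the surfactant protein gene Sftpc at 5897 to 8559 CPM (reads of a gene scaled to a common library size after TMM normalization) in knockout lung and 6836 to 8771 CPM in wild type lung. WT6 and KO5 deviated alike from their own group means. These deviations had a correlation of 0.59 across the tested genes, the highest of any knockout and wild type pair, as a description. Most results that rest on either are therefore given with and without them. A level in bulk tissue cannot tell fewer cells of a type from less RNA per cell.

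No gene of the group passed the test between knockout and wild type lung. In edgeR's quasi-likelihood test the adjusted p was 0.9998 for each of the 31. Thus 0 of 31 lay under 0.05, where 0.0353% of all genes tested did, and 0 of 31 passed in DESeq2, where 0.237% of all genes did. An unadjusted p under 0.05 was found for 2 of the 31, Elovl1 and Me1, against 2.87% of all genes. Of the 31 log2 fold changes (knockout over wild type), 14 were positive and 17 negative, with a median of -0.02 beside a median of -0.01 over all genes tested. This split turned with the libraries used. Without WT6 and KO5 it was 20 positive and 11 negative (median 0.02), without WT6 it was 18 and 13 (median 0.0067), and without KO4 it was 7 and 24 (median -0.06). Over all libraries the values ran from -0.46 for Acacb to 0.26 for Dhcr7. The 95% interval of the log2 fold change lay within 0.5 on either side of 0, a 1.41-fold difference, for 21 of the 31 genes. It lay within a 2-fold difference for 29, and the exceptions were Acacb and Elovl6.

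**Figure D1:**
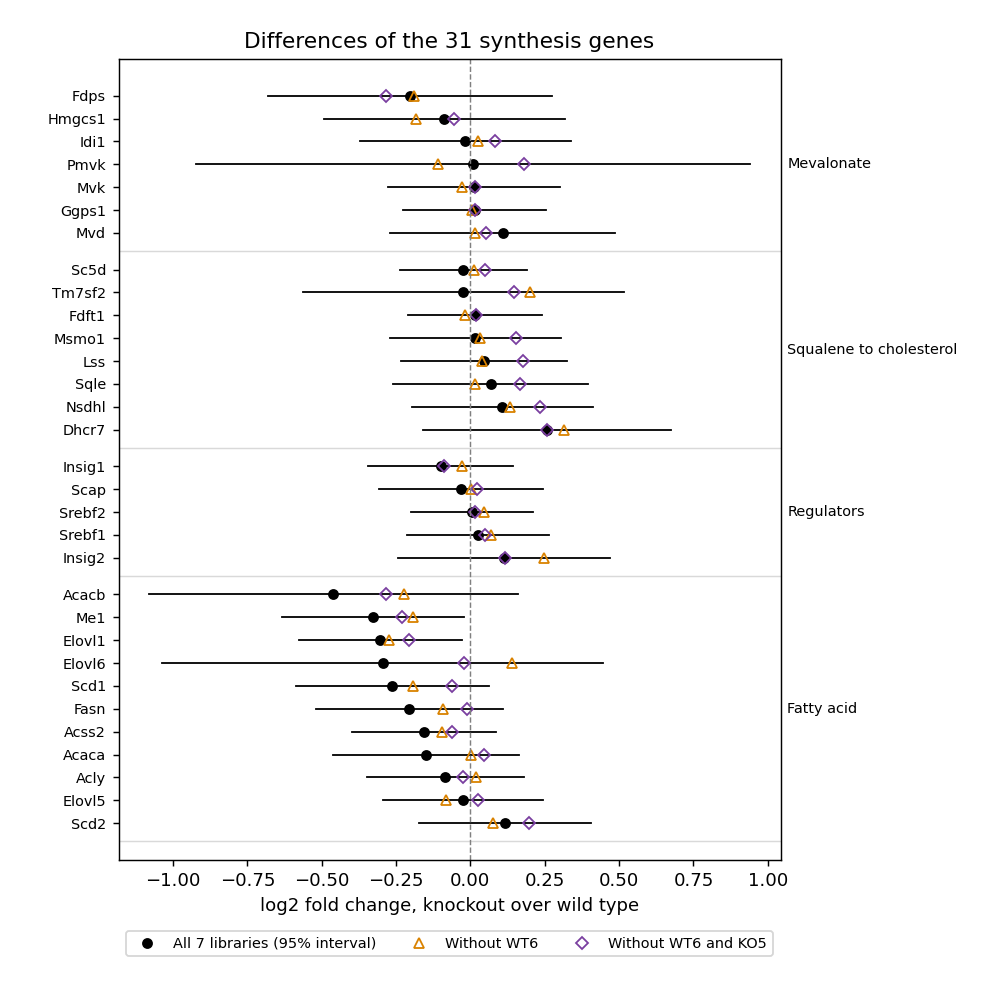
Log2 fold change (knockout over wild type, horizontal axis) of the 31 genes, grouped by role. Filled circles with bars show the value and 95% interval over all 7 libraries, triangles the value without WT6 and diamonds the value without WT6 and KO5. In the fatty acid group, 10 of 11 circles lie left of 0, and without WT6 the value lies nearer to 0 or right of it for each of these except Elovl5.

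Lung transcript levels differed far more between genes than between genotypes. Per kb of merged exon, the desaturase gene Scd1 had the highest level, 256 CPM per kb in knockout and 307 CPM per kb in wild type lung. Scd2, another stearoyl-CoA desaturase, had 155 and 143 CPM per kb in knockout and wild type lung. Fasn, the fatty acid synthase, had 86.7 CPM per kb in knockout and 99.96 CPM per kb in wild type lung. Desaturation and assembly of fatty acids thus held the leading places, and the sterol enzymes lay well below them. Among the sterol enzymes the level was highest for the phosphomevalonate kinase gene Pmvk (39.6 CPM per kb in knockout, 39.4 in wild type lung), followed by Hmgcs1 with 13.4 and 14.3 CPM per kb. It was lowest for Fdps, with 0.61 CPM per kb in knockout and 0.70 CPM per kb in wild type lung.

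**Figure D2:**
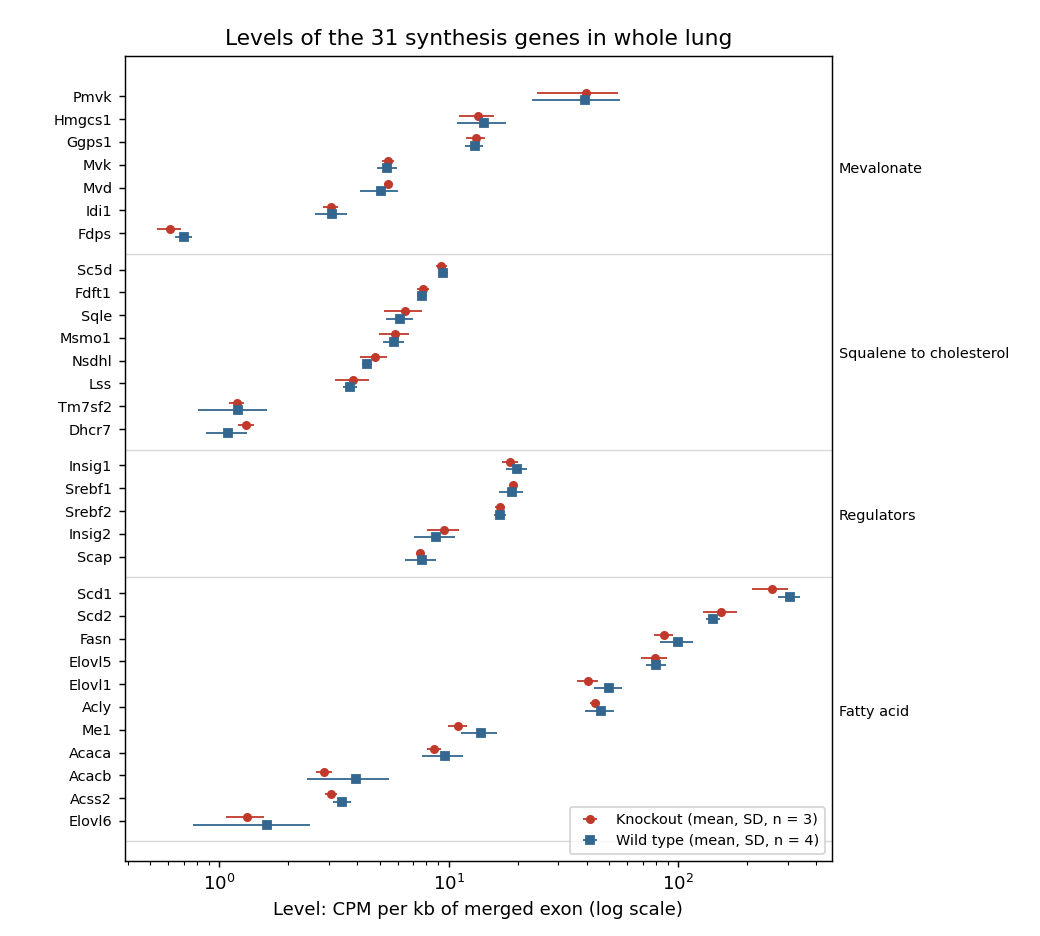
Level of each of the 31 genes in CPM per kb of merged exon (horizontal axis, log scale), as mean with SD over 3 knockout libraries (circles) and 4 wild type libraries (squares). Scd1 lies at the high end at 256 in knockout and 307 CPM per kb in wild type lung, and Fdps at the low end at 0.61 and 0.70 CPM per kb.

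Some of these levels are uncertain because reads could be shared with other genes. Transcripts of Fdps match 5 other annotated genes at 96.1% identity or more over 67.2% to 76.8% of their length, and only 34 to 46 reads per library were assigned to Fdps. Me1 matches Gm7049 at 98.5% over 49.8% of its transcript and Acaca matches Gm5182 at 99.2% over 64.3%, but those copies held at most 3 and 14 counts in any library. Fdft1 overlaps the cathepsin gene Ctsb on the opposite strand in 18.3% of its exon length, and no label says whether the counting used strand. Scd2 and Scd1 share 95.5% identity over 11.4% of the Scd2 transcript.

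The mevalonate branch opens with Hmgcs1, the HMG-CoA synthase. It had 71.6, 63.3 and 50.4 CPM in KO3, KO4 and KO5, against 52.6, 82.3, 75.7 and 52.0 CPM in WT2, WT3, WT4 and WT6. The ranges overlapped, with low values in KO5, WT2 and WT6, and the log2 fold change was -0.09 ± 0.18 (SE). Pmvk, a later kinase of the branch, varied most between libraries of all 31 genes. Its values were 86.4, 78.9 and 38.0 CPM in the knockout libraries, against 40.8, 76.6, 102.7 and 49.7 CPM in WT2, WT3, WT4 and WT6, a 2.70-fold span from lowest to highest. The same libraries were low as for Hmgcs1, and the group means, 67.8 ± 26.04 CPM in knockout (SD, n = 3) and 67.4 ± 27.97 CPM in wild type lung (SD, n = 4), hardly differed. Its log2 fold change of 0.01 had a 95% interval of -0.92 to 0.94, which holds differences of almost 2-fold in either direction. Without WT6 the log2 fold change was -0.11, and without WT6 and KO5 it was 0.18.

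The other genes of this branch had narrower spreads. Mvd, the mevalonate diphosphate decarboxylase, had 10.3, 10.5 and 9.63 CPM in the knockout libraries and 8.44, 10.3, 11.5 and 7.46 CPM in the wild type libraries. Fdps, the farnesyl diphosphate synthase, had 2.30, 2.48 and 2.90 CPM in the knockout libraries and 2.77, 2.75, 3.26 and 3.02 CPM in WT2, WT3, WT4 and WT6. Both pairs of ranges overlapped. Mvk, the mevalonate kinase, Idi1, the isopentenyl diphosphate isomerase, and Ggps1, which makes the geranylgeranyl diphosphate used for protein prenylation, had log2 fold changes of 0.01, -0.02 and 0.01. The median log2 fold change of the 7 mevalonate genes was 0.01, and 0 of 7 passed the test.

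Squalene and sterol enzymes also had ranges that overlapped between genotypes. Sqle, the squalene epoxidase and a rate-limiting step after squalene, had 38.7, 40.5 and 27.9 CPM in KO3, KO4 and KO5, against 30.1, 37.7, 38.3 and 30.3 CPM in WT2, WT3, WT4 and WT6. KO5, WT2 and WT6 were again the low libraries, and the log2 fold change was 0.07 ± 0.15 (SE). This value was 0.02 without WT6 and 0.17 without WT6 and KO5. Dhcr7, the last reductase before cholesterol, had the highest log2 fold change of the 31 genes, 0.26 ± 0.19 (SE). Its values were 7.03, 7.64 and 8.25 CPM in the knockout libraries and 7.71, 4.85, 5.85 and 7.10 CPM in WT2, WT3, WT4 and WT6, so that WT2 and WT6 lay within the knockout range. Nsdhl, a sterol dehydrogenase of the demethylation steps, had 13.9, 15.2 and 11.6 CPM in knockout and 12.1, 13.1, 12.1 and 13.2 CPM in wild type libraries, which also overlapped.

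The sterol reductase gene Tm7sf2 had 4.87, 5.22 and 5.65 CPM in the knockout libraries and the wider range of 5.54, 4.53, 3.55 and 7.67 CPM in WT2, WT3, WT4 and WT6. Its log2 fold change was -0.02 over all libraries, 0.20 without WT6 and 0.15 without WT6 and KO5. Fdft1, the squalene synthase, Lss, the cyclase that forms lanosterol, the demethylation enzyme Msmo1 and the desaturase Sc5d had log2 fold changes between -0.02 and 0.05. Over the 8 genes the median was 0.03, and 0 of 8 passed. Leaving out KO5 raised this median to 0.16, and it was also 0.16 without both WT6 and KO5. KO5 had the lowest value of the 7 libraries for 5 of the 8 genes, and none of them passed in either fit.

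Promoter windows were searched for the letters of control elements known for this pathway. RefSeq's table for GRCm38.p6, with windows from 250 bases before to 50 bases after a start site, matched 26 of the 31 genes with 36 windows, and Fdft1, Fdps, Scd1, Scd2 and Sqle were not searched. The letters TCACNCCAC, the core of the sterol regulatory element bound by SREBP factors, occurred on either strand in 1 of these 36 windows (2.78%), that of Hmgcs1, and in 1.24% of all 32851 windows. The letters CCAAT, the core bound by the cofactor NF-Y, occurred on either strand in 24 of 36 windows (66.7%), against 37.4% of all windows, and matches to the sterol element and to CCAAT do not overlap in the stretches shown. Counted by gene, 23 of the 26 genes had a CCAAT in at least 1 window, against 41.1% of all genes in the table. A match is a description of letters and no evidence of binding. Only exact matches within the windows were counted, so a window without one does not show that the gene lacks a sterol element. The stretches of 120 bases below lie upstream of the RefSeq start sites of a gene of each of the 3 enzyme groups. In GENCODE's annotation Msmo1 begins further upstream, at 64733792, so its stretch lies inside that gene there. The stretches are on the gene's own strand, with matches in capitals (ATTGG is CCAAT on the other strand). They lie at chr13:119690201-119690320 (plus strand) for Hmgcs1, chr8:64733629-64733748 (minus strand) for Msmo1 and chr11:120824548-120824667 (minus strand) for Fasn.
Hmgcs1: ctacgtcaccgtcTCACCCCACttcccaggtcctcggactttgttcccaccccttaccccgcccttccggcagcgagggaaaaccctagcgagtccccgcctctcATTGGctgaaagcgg
Msmo1: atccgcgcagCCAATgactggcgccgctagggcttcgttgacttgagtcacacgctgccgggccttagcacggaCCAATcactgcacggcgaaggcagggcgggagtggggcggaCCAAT
Fasn: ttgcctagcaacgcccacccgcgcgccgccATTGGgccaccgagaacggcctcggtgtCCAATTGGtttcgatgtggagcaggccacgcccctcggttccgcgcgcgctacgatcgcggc
In Hmgcs1 the sterol element core begins 137 bases before the start site. In Fasn a CCAAT on the gene's strand and another on the other strand share bases, 62 and 59 bases before the start.

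The regulators had the narrowest span of log2 fold changes, from -0.10 to 0.11. Srebf1 and Srebf2 encode the SREBP factors that act mainly on fatty acid and on sterol genes. Srebf1 had 109.1, 103.2 and 111.3 CPM in KO3, KO4 and KO5, against 111.6, 88.1, 108.8 and 115.7 CPM in the wild type libraries, with a log2 fold change of 0.02 (95% interval -0.21 to 0.26). Srebf2 averaged 120.9 ± 6.10 CPM in knockout (SD, n = 3) and 120.4 ± 7.22 CPM in wild type lung (SD, n = 4). The 95% interval of its log2 fold change, -0.20 to 0.21, was the narrowest of the 31 genes. Scap, which escorts the SREBP factors to the Golgi, had 55.4, 57.0 and 54.4 CPM in knockout and 58.9, 44.1, 63.6 and 60.6 CPM in wild type libraries.

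Insig1 and Insig2 hold the Scap and SREBP complex back when sterols are plentiful, and Insig1 is itself an SREBP target. Insig1 had 54.1, 55.6 and 62.4 CPM in KO3, KO4 and KO5, against 55.1, 62.3, 58.1 and 70.3 CPM in WT2, WT3, WT4 and WT6. For Insig2 the values were 31.4, 29.2 and 39.1 CPM in the knockout and 24.7, 31.7, 27.5 and 39.0 CPM in the wild type libraries. Both genes were high in KO5 and in WT6, and the genotypes overlapped. Their log2 fold changes were -0.10 ± 0.11 and 0.11 ± 0.16 (SE). Without WT6 they were -0.03 and 0.25, and without WT6 and KO5 they were -0.09 and 0.12. The median over the 5 regulators was 0.01, and 0 of 5 passed.

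Fatty acid genes leaned most to 1 side. Of 11 log2 fold changes, 10 were negative and only that of Scd2 was positive (0.12), with a median of -0.21, but 0 of 11 passed the test. Me1, the malic enzyme that supplies NADPH for synthesis, had 44.7, 37.6 and 44.7 CPM in KO3, KO4 and KO5, against 48.4, 49.9, 46.6 and 67.2 CPM in WT2, WT3, WT4 and WT6. All knockout values lay below all wild type values, which held for 1 of the 31 genes in that direction and for 0 in the other, where 1.61% of all tested genes lay lower and 2.11% higher without overlap (3.72% in all). Me1 differed by -0.33 ± 0.14 (log2 fold change, SE), at an unadjusted p of 0.0386 in edgeR. An exact two-sided permutation test gave p = 0.0571 (1 after adjustment over all genes tested), where 0.0286 is the smallest that the 35 splits allow. Without WT6 the log2 fold change was -0.19 (unadjusted p = 0.117 in edgeR), and without both WT6 and KO5 it was -0.23.

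Elovl1, an elongase of very long saturated chains, had 108.5, 123.1 and 100.2 CPM in the knockout libraries and 157.7, 114.2, 129.7 and 144.4 CPM in WT2, WT3, WT4 and WT6. KO4 lay above WT3, so the genotypes overlapped, and the log2 fold change was -0.30 ± 0.13 (SE). It was -0.27 without WT6 and -0.21 without both WT6 and KO5. Scd1, the main desaturase that makes oleate and palmitoleate, had 1271, 1467 and 1014 CPM in KO3, KO4 and KO5, against 1335, 1423, 1534 and 1708 CPM in WT2, WT3, WT4 and WT6. KO5 was the lowest and WT6 the highest of all 7 libraries, and KO4 lay above WT2 and WT3. Its log2 fold change of -0.26 ± 0.15 (SE) came to -0.06 without WT6 and KO5.

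Fasn, the enzyme that assembles palmitate, shared its lowest and its highest library with Scd1. It had 992, 1013 and 842 CPM in the knockout libraries and 984, 945, 1108 and 1340 CPM in WT2, WT3, WT4 and WT6. KO3 and KO4 lay between the wild type values. The log2 fold change was -0.21 over all libraries (95% interval -0.52 to 0.11), -0.09 without WT6 and -0.01 without WT6 and KO5. Acaca, the acetyl-CoA carboxylase of the cytosol and the committed step, had 139 to 160 CPM in the knockout libraries, 142 to 158 CPM in WT2, WT3 and WT4, and 213.0 CPM in WT6. Its log2 fold change of -0.15 was 0.0020 without WT6.

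**Figure D3:**
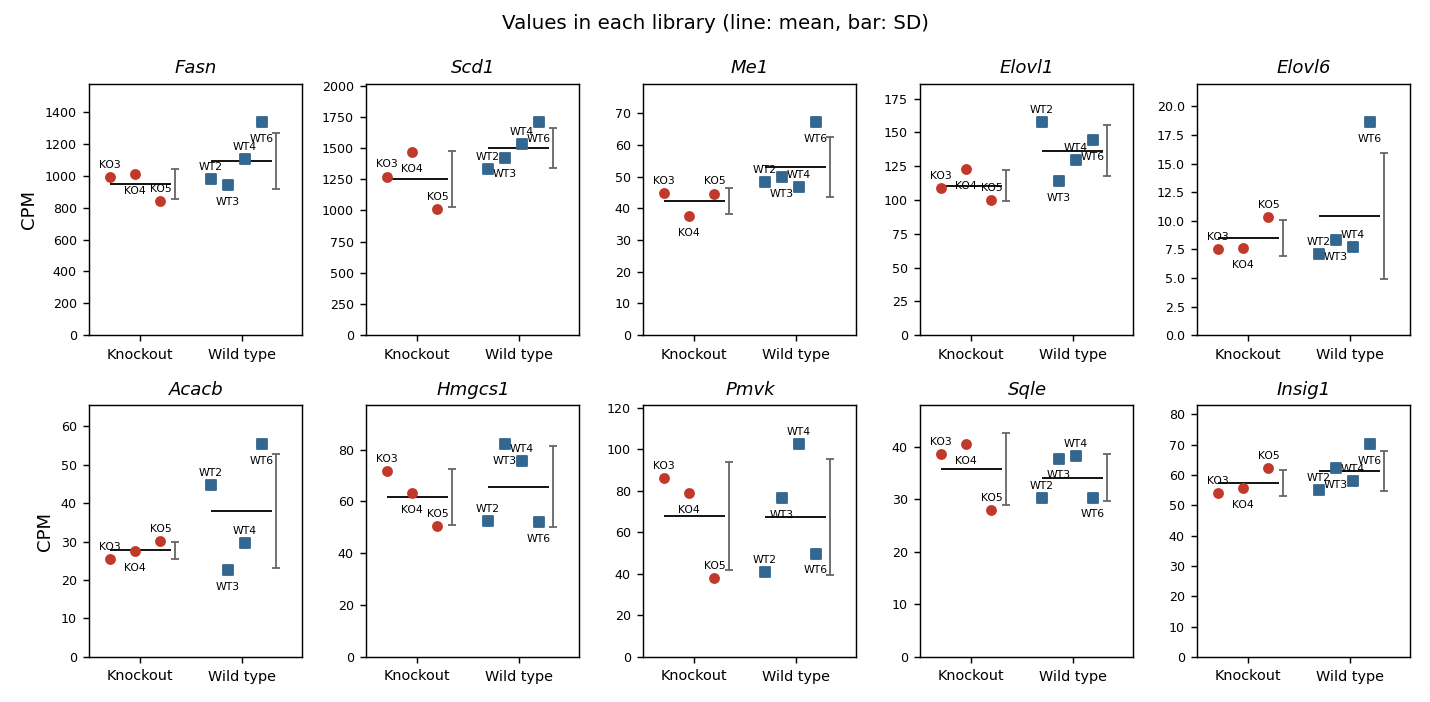
CPM (vertical axes, from 0) of 10 of the 31 genes in each library, with the 3 knockout libraries as circles and the 4 wild type libraries as squares; lines mark group means and bars the SD. Fasn and Scd1 are lowest in KO5 (842 and 1014 CPM) and highest in WT6 (1340 and 1708 CPM), Elovl6 is highest in WT6 (18.6 CPM) and next in KO5 (10.4 CPM), and Hmgcs1, Pmvk and Sqle are low in KO5, WT2 and WT6.

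Acacb, the carboxylase isoform at mitochondria that restrains fatty acid oxidation, had the lowest log2 fold change of the group and a wide interval (-0.46, 95% interval -1.08 to 0.16). It had 25.4, 27.6 and 30.0 CPM in KO3, KO4 and KO5, against 44.8, 22.5, 29.6 and 55.5 CPM in WT2, WT3, WT4 and WT6. The knockout values lay close together and within the wild type range, where WT2 and WT6 were high. The log2 fold change was -0.22 without WT6 and -0.28 without WT6 and KO5. Elovl6, which lengthens palmitate, had 7.50, 7.64 and 10.4 CPM in the knockout libraries and 7.11, 8.30, 7.70 and 18.6 CPM in WT2, WT3, WT4 and WT6. WT6 was 2.42-fold above the mean of the other wild type libraries, and without it the log2 fold change was 0.14 in place of -0.30. Without WT6 and KO5 it was -0.02. The remaining genes were Acly, which releases acetyl-CoA from citrate (log2 fold change -0.08, and 0.02 without WT6), the acetyl-CoA synthetase Acss2 (-0.16, and -0.09 without WT6), and Elovl5, an elongase of polyunsaturated chains (-0.02, and -0.08 without WT6), all with overlapping ranges. Without WT6 and KO5 the values of Acly, Acss2 and Elovl5 were -0.03, -0.06 and 0.02.

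Much of the spread of the fatty acid genes lay in WT6 and KO5. WT6 was the highest of all 7 libraries for 8 of the 11 genes and KO5 the lowest for 7 of 11. Within this pair KO5 lay below WT6 for 11 of 11, with a ratio of 0.54 for Acacb, 0.59 for Scd1, 0.63 for Fasn and 0.99 for Scd2. The pair holds 1 library of each genotype and allows no test. Among the other 5 libraries, 8 of 11 log2 fold changes were negative with a median of -0.03, and with WT6 alone left out 7 of 11 were negative with a median of -0.09. The genes of sterol synthesis followed another order. Their mean deviation from each gene's own mean was 0.07 and 0.10 on the log2 scale in KO3 and KO4 and -0.13 in KO5, and -0.12, 0.04, 0.07 and -0.03 in WT2, WT3, WT4 and WT6 (15 genes). For the fatty acid genes this mean deviation was -0.10, -0.05 and -0.16 in KO3, KO4 and KO5, and 0.03, -0.06, -0.02 and 0.35 in WT2, WT3, WT4 and WT6. Both sets had their lowest mean in KO5. Within the sterol set, the mevalonate and the squalene to cholesterol genes differed, with 0.24 and -0.08 in WT4 and -0.13 and 0.06 in WT6.

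**Figure D4:**
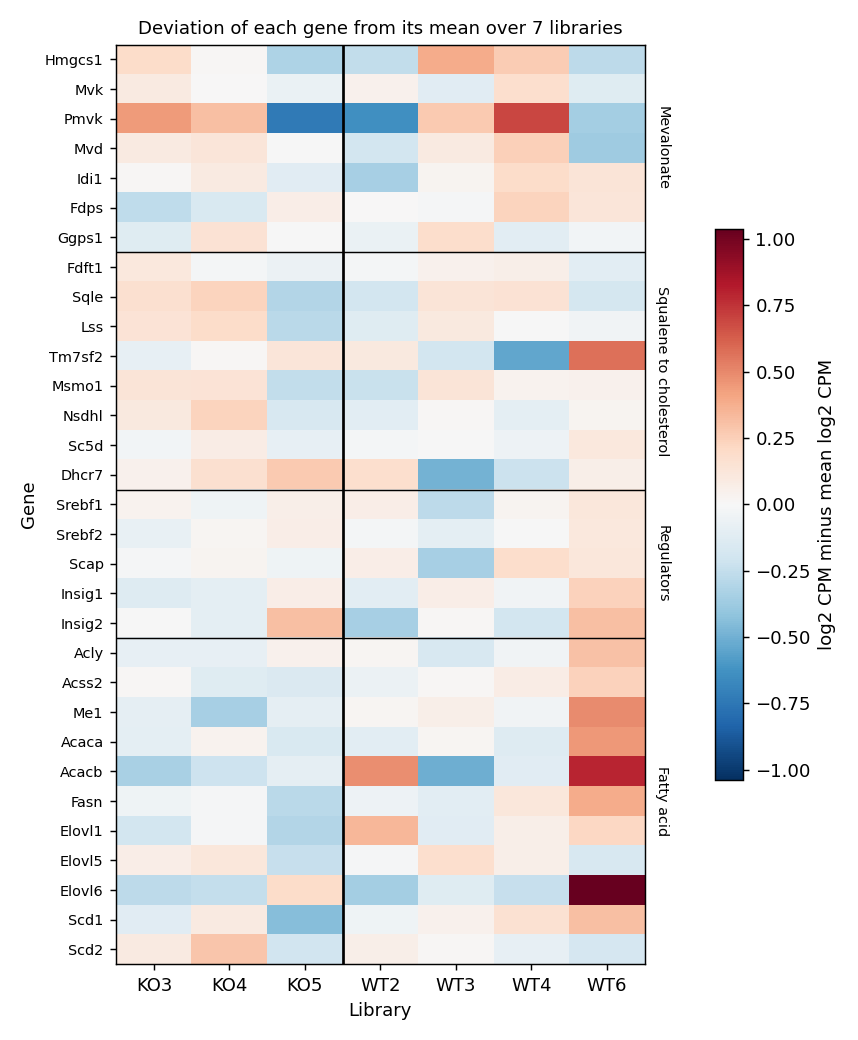
Deviation of each of the 31 genes (rows, by role) from its own mean over the 7 libraries (columns, knockout left of the line), in log2 CPM, with red above and blue below the mean. Of the 11 fatty acid rows, 9 are red in WT6, with a mean deviation of 0.35, and Pmvk, Sqle and Hmgcs1 are blue in KO5 and WT2.

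Most, but not all, markers of fat cells were high in WT6, as were most fatty acid genes. The 12 adipocyte markers, of which 9 were abundant enough to be tested, summed to 211 to 240 CPM in knockout lung and 200 to 415 CPM in wild type lung, and the highest wild type sum other than that of WT6 was 265 CPM. Adipoq, the fat cell hormone adiponectin, had 0.88, 0.83 and 2.97 CPM in KO3, KO4 and KO5, against 1.205, 0.38, 2.07 and 13.5 CPM in WT2, WT3, WT4 and WT6. Plin1, which coats lipid droplets, had 1.08, 0.64 and 3.48 CPM in the knockout libraries and 3.07, 1.41, 1.85 and 14.1 CPM in the wild type libraries. Ucp1, the uncoupling protein of brown fat, was at 0 counts in KO4, WT2, WT3 and WT4 and at 9.28 CPM in WT6. In all, 9 of the 12 markers were highest of the 7 libraries in WT6 and second highest in KO5. Among the 11 fatty acid genes 8 were highest in WT6, and Acly and Elovl6 also had KO5 second, while KO5 was the lowest library for 7. The most abundant markers of the list, the lipases Pnpla2 and Lipe, and the hormone gene Lep did not follow this order. Pnpla2 had 161, 161 and 99.8 CPM in KO3, KO4 and KO5, against 115, 149, 162 and 113 CPM in WT2, WT3, WT4 and WT6, so that WT6 was the lowest wild type library. Lipe had 46.1 CPM in WT6 and 54.4 CPM in WT4, where its value was highest. The part of fat cells in the fatty acid values was not tested. None of the 9 markers tested passed between genotypes over all libraries. Plin1 was called lower in knockout lung in 1 of 14 alternatives, edgeR with a term for WT6 and KO5 (log2 fold change -1.64, adjusted p = 0.0484, where 0.146% of all genes were called).

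Markers of the lung cells that make surfactant lipid did not separate the genotypes. The 10 type 2 cell markers had a median log2 fold change of -0.07, with 0 of 10 called, and summed to 14521 to 19443 CPM in knockout lung and 16079 to 19991 CPM in wild type lung. Their lowest sum was in KO5, the library with the lowest Scd1 and Fasn. WT6, the library with the highest Scd1 and Fasn, summed to 16392 CPM, which was below KO3, KO4, WT3 and WT4. Sftpc alone made up 6836 CPM of this sum. Abca3 was highest of the 7 libraries in WT6 (513 CPM) and Napsa highest of the wild type libraries (156 CPM). No other marker of the 10 had its highest wild type value in WT6. The part of type 2 cells in the lipid gene values was not tested. Alveolar macrophages take up and break down surfactant lipid, and their 9 markers summed to 527 to 633 CPM in knockout and 433 to 578 CPM in wild type lung, with 0 of 9 called. Plasma cell markers and markers of dividing cells had higher sums in each knockout library than in any wild type library, with 612 to 2156 CPM and 99.3 to 155 CPM, against 409 to 454 CPM and 71.5 to 90.03 CPM in wild type lung. An unadjusted p under 0.05 in edgeR was found for 5 of these 7 plasma cell genes and 6 of these 8 dividing cell genes, against 2.87% of all genes. Knockout values lay above all wild type values without overlap for 3 and 5 of them, against 2.11% of all genes. In edgeR none of these markers passed after adjustment over all genes. In DESeq2, where 0.237% of all genes were called, 4 of them were called higher in knockout lung. They were the antibody chain genes Igkc and Igha, the antibody joining chain gene Jchain and the proliferation marker Mki67. Their log2 fold changes were 3.35, 3.42, 3.97 and 0.82 (adjusted p = 1.75e-07, 0.000109, 0.000959 and 0.00731). Without WT6 and KO5 these log2 fold changes were 2.81, 2.40, 2.72 and 0.68 in edgeR. These 4 were also called in edgeR with the replicate block, where 0.706% of all genes were. That block joins libraries that share only a number and leaves little freedom. Igkc, Igha and Mki67 were called without KO3, where 0.202% of all genes were. The part of these cells in the lipid gene values was not tested. Mesothelial markers summed to 106, 135 and 219 CPM in the knockout libraries, and to 108, 138, 111 and 225 CPM in WT2, WT3, WT4 and WT6, so that KO5 and WT6 had the highest sums. Club cell markers, of the cells that make Scgb3a2, summed to 9229 to 16855 CPM in knockout and 11189 to 17305 CPM in wild type lung. KO5 and WT6 had the lowest sums in their genotypes, but most of each sum was Scgb1a1 (6768 CPM in KO5, 8380 CPM in WT6). Of the others, Cyp2f2, Scgb3a1, Gabrp and Hp were highest of the wild type libraries in WT6, and Aldh1a1 was neither highest nor lowest there. Among knockout libraries, KO5 was highest for Scgb3a1 and Hp and lowest for Cyp2f2 and Aldh1a1. An unadjusted p under 0.05 in edgeR was found for 2 of the 6 (2.87% of all genes), and 0 of 6 passed.

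Further genes of sterol synthesis and handling showed the same absence of calls. Of 12 genes, 0 passed, 5 had positive and 7 negative log2 fold changes, and the median was -0.03. Stard4, a carrier of cholesterol between membranes and an SREBP target, was the exception among the 12 in its values. It had 37.3, 45.3 and 49.2 CPM in KO3, KO4 and KO5, against 28.7, 30.4, 34.7 and 36.1 CPM in WT2, WT3, WT4 and WT6, without overlap (2.11% of all tested genes in this direction). The log2 fold change of 0.44 ± 0.13 (SE, unadjusted p = 0.0052) did not pass (adjusted p = 0.9998 in edgeR) and was 0.40 without WT6 and KO5. An exact permutation test gave p = 0.0286, the smallest possible here, and 1 after adjustment over all genes tested. The acetyl-CoA thiolase Acat2 and the cholesterol esterifying enzyme Soat1 had log2 fold changes of 0.17 and -0.20. That of Soat1 was -0.11 without WT6 and -0.16 without WT6 and KO5.

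Sterol export and sensing, further fatty acid genes and phospholipid synthesis had no calls either. Of 9 export and sensing genes, 0 passed with a median of 0.08. Abca1, which exports cholesterol to lipoproteins, had 376, 397 and 381 CPM in knockout libraries and 393, 328, 307 and 304 CPM in WT2, WT3, WT4 and WT6, so that WT2 lay within the knockout range (log2 fold change 0.21 ± 0.12, SE). The sterol-sensing receptor Nr1h3 had a log2 fold change of -0.22 and Abcg1, another exporter, of 0.10. Of 16 tested genes of fatty acid synthesis and activation outside the 31, 0 passed with a median of -0.07, and without WT6 and KO5 this median was 0.02. Slc25a1, the mitochondrial citrate carrier, had a log2 fold change of -0.26, which was -0.10 without WT6 and -0.05 without WT6 and KO5. That of Mid1ip1, an activator of acetyl-CoA carboxylase, was -0.30 over all libraries, -0.43 without WT6 and -0.29 without WT6 and KO5. For Hsd17b12, an enzyme of chain lengthening, it was -0.17, and -0.10 without WT6. Acsl5, which activates fatty acids, had lower values in the knockout libraries (128 to 130 CPM) than in the wild type libraries (137 to 146 CPM), without overlap (1.61% of all tested genes in this direction). Its log2 fold change was -0.13. Elovl3 was not analysed here and Elovl4 was too low to be tested. Of 12 genes of surfactant phospholipid synthesis and transport, 0 passed with a median of -0.04. Lpcat1, which forms the saturated phosphatidylcholine of surfactant, had 260, 249 and 270 CPM in the knockout libraries and 327, 258, 255 and 329 CPM in WT2, WT3, WT4 and WT6 (log2 fold change -0.17, and -0.11 without WT6). Abca3, the lipid pump of the lamellar bodies, had a log2 fold change of -0.15, and -0.07 without WT6.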

How the data were processed

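Whole-lung RNA of 3 knockout and 4 wild type libraries was measured by RNA sequencing. The authors deposited whole-number read counts per gene symbol, not normalized. STAR, DESeq2 and mm10 are named, per the submitters' processing notes, without versions or roles, and the counting program and its settings are not stated in the labels. Libraries were grouped by genotype from their titles and held 13071262 to 16480006 counts, and the closest pair within a genotype still differed beyond sampling noise (chi-square over its degrees of freedom, 4.30), so each was counted once. Precision is limited by 3 and 4 libraries.

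Counts were tested with edgeR 4.0.16 (R 4.3.3), with its filter on low counts, TMM scaling, the robust quasi-likelihood test and genotype as the only term, two-sided, with Benjamini-Hochberg adjustment over 19832 genes and 0.05 as threshold. SEs were derived from the F statistic, and 95% intervals from the t distribution of the fit. The procedure was tested on simulated counts. DESeq2 1.42.0 was an alternative, as were other scalings, no filter, a replicate block, each library left out, and WT6 with KO5 left out or given a term. Exact permutation tests used log2(CPM + 1). Merged exon lengths and copies (BLAST 2.17.0, identity of at least 95% over 200 bases) came from GENCODE's GRCm38 annotation, matched by symbol. The genes, lists and alternatives were chosen with earlier results of these data known. Values in every library are given for the 3 genes of each role with the smallest p, the 4 with the widest range and Hmgcs1, Sqle, Fasn, Scd1, Srebf1 and Insig1. Of other pathway lists up to 3 genes with the smallest p are named, and of marker lists up to 3 with the highest mean. Acaca, Srebf2, Acsl5, Adipoq, Plin1, Ucp1, Lep, Jchain, Mki67, Napsa, Scgb3a1, Gabrp, Hp and the genes with 1 outlying wild type library stand outside this rule or were chosen after their values were seen. Some genes of the sterol pathway are not reported here.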

Additional observations from a re-analysis of the deposited data

Results flagged for a closer look

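In each check, the highest or lowest of the 4 wild type values was set against the range of the group (Dixon's ratio, critical value 0.829), which chance passes for about 1 group in 20. The check covered the 31 synthesis genes and all genes of the other pathway and marker lists in the count table, 137 genes in all. Of these 17 passed, 14 with WT6 as the high library and 3 with a low library, and 9 of the 17 belong to the single list of 12 fat cell markers. Genes of 1 list are not independent of each other.

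Among the 31 synthesis genes 2 passed. Me1 had 67.2 CPM in WT6 against 49.9 CPM or less in the other wild type libraries, and Elovl6 had 18.6 CPM against 8.30 CPM or less. Of the other fatty acid genes, Thrsp had 17.9 CPM in WT6 against 3.25 CPM or less. Of the fat cell markers, Adipoq had 13.5 CPM in WT6, Plin1 14.1 CPM, Cidec 21.3 CPM, Cidea 6.19 CPM and Cfd 55.9 CPM, where the next highest wild type values were 2.07, 3.07, 12.3, 0.74 and 12.8 CPM. Retn had 2.39 CPM in WT6, Pck1 45.9 CPM, Ucp1 9.28 CPM and Car3 87.4 CPM, where the next highest wild type values were 0.575, 2.77, 0 and 16.7 CPM. Of the mesothelial markers, Msln had 55.3 CPM in WT6 and Upk3b 42.3 CPM, with 19.4 and 15.8 CPM as the next highest wild type values and 82.1 and 33.96 CPM in KO5. The low libraries were WT6 for Mylip (27.9 CPM, against 52.4 CPM or more) and WT2 for Hsd17b7 and Tmem97 (11.3 and 10.9 CPM, against 12.95 and 12.6 CPM or more).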

How the results depend on the processing

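None of the 31 genes was called under any of the 14 alternatives, where the lowest adjusted p was 0.437 (Me1, in edgeR with a term for WT6 and KO5). The sign of the log2 fold change held in all 14 for 9 of the 31 genes, 7 negative (Fdps, Insig1, Acss2, Me1, Fasn, Elovl1 and Scd1) and 2 positive (Nsdhl and Dhcr7), and changed in at least 1 for the other 22. The count over all genes, 7 in the fit as reported, was 47 with DESeq2, 140 with the replicate block, 14 without WT6 and KO5, 29 with a term for this pair, and 3 (without WT2, WT3 or WT4) to 41 (without KO3) with each library left out. The fatty acid median, -0.21, was -0.030 with the replicate block, -0.025 without WT6 and KO5, and -0.27 (without WT3) to -0.09 (without WT6) with each library left out. Other fatty acid genes had a median of 0.0062 with the block and 0.023 without the pair, against -0.07. The squalene to cholesterol median was 0.16 without the pair, and -0.028 (without KO4) to 0.16 (without KO5) with each library left out. That of the mevalonate genes was -0.12 (without WT2) to 0.046 (without WT4). The cause was not tested. Only the numbers 3 and 4 occur in both genotypes, with correlations of deviations of 0.24 and 0.20, while KO3 with WT4 and KO4 with WT3 had 0.24 and 0.22, so the libraries share only a number and the block leaves little freedom. In the block fit WT2, WT6 and KO5 each have a term of their own. Its genotype difference thus rests on KO3, KO4, WT3 and WT4, and in effect it leaves out WT6 and KO5 as well. Low counts limit Fdps (34 to 46 reads).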
